A study of Jatropha curcas with 22 samples.

Results

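Root tips of Jatropha curcas seedlings that had been watered throughout and were collected late (days 49 to 52) were compared with root tips of seedlings that had gone 13 days without water. Each side held 2 libraries. The comparison covered the gene models with at least 10 reads in at least 2 of these 4 libraries, which were 23773 of the 57437 gene models in the deposited count table. Of the members, 21709 reached 10 reads in all 4 libraries, 816 reached it in both late watered libraries but not in both moderate drought libraries, 974 the reverse, and 274 in 1 library of each group.

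The study followed gene expression in young leaves and root tips of seedlings from the Cape Verde islands, 36 days old at the start, through moderate drought, severe drought and rewatering. Moderate drought roots (day 13, no water for 13 days) came from pools of 3 plants, as did the day 13 watered roots used here for context. Severe drought roots (day 49, 49 days without water, pools of 6 plants) and rewatered roots (day 52, pools of 3) entered the same fit and are cited for context. The late watered roots share 1 label for days 49 and 52, and the number of plants in each pool is not given. The late watered plants were therefore both watered and older at harvest than the moderate drought plants, and the effects of water and of age cannot be told apart in this comparison. Whether the libraries of a group came from separate plants is not given, so p-values measure the spread between libraries only. In whole root tips, fewer cells of a type and less RNA per cell cannot be told apart either.

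Roots take up water and mineral ions behind a zone of cell division and elongation. When water is short, plants make the hormone abscisic acid (ABA), which is detected by PYR/PYL receptors that in turn inhibit type 2C protein phosphatases (PP2Cs), and many genes for protective proteins respond to it. Water crosses root cell membranes partly through aquaporins, and elongation depends on wall-loosening expansins, while roots that age lay down secondary walls. The Casparian strip is a barrier that forms in young endodermis.

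The late watered libraries held 50137379 and 42497362 reads, and the moderate drought libraries 57579997 and 61148792. Their 2 libraries differed from each other by a median of 0.15 log2 units per gene model in the late group and 0.22 in the moderate group. Between the groups that distance ran from 0.31 to 0.40 over the 4 pairs of libraries. Late watered roots lay farther from day 13 watered roots (0.47 to 0.68) and from rewatered roots (0.37 to 0.47). The moderate drought roots were not closest to the late roots in return, since their distance to rewatered roots was 0.27 to 0.36. Moderate drought replicate 1 was the nearer of its pair to both late libraries. The 2 day 13 watered libraries differed from each other by 0.41, more than any late library from a moderate one. Moderate replicate 2 lay 0.24 from day 13 replicate 1 and 0.46 from day 13 replicate 2, so the day 13 reference rests on libraries that agree poorly. The late libraries also had the most gene models with any read, 40952 and 38267 against 31702 to 36477 in the other root libraries, and the order held when all were brought to the lowest depth (39594 and 37964 against 31326 to 36400). Among models with 10 or more reads they did not stand apart (23858 and 22987 against 22030 to 23533 in the other root libraries, the first being the highest). The part of these extra low-count models in the results was not tested, beyond the filters given in the closing section.

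**Figure D1:**
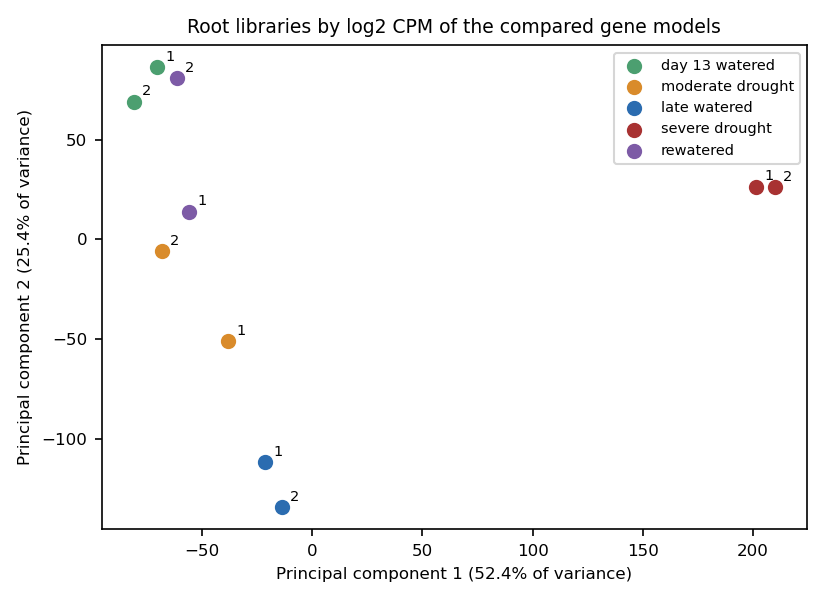
Position of the 10 root libraries on the first 2 principal components of log2 CPM (library-scaled counts) over the 23773 gene models. Points are single libraries numbered by replicate and coloured by group. The late watered libraries have the lowest values on component 2 (-111.68 and -134.06), the moderate drought libraries come next (-51.09 and -5.9), and the day 13 watered libraries are at 86.15 and 69.06.

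At an adjusted p under 0.05, called in edgeR's quasi-likelihood test with Benjamini-Hochberg adjustment, 584 gene models (2.46%) were higher and 739 (3.11%) lower in late watered roots, together 5.57% of those tested. Of these, 481 and 626 differed by at least 2-fold, and 140 and 135 by at least 8-fold. An unadjusted p under 0.05 was reached by 6167 gene models. Models that had passed the read filter through the late libraries alone gave 121 of the higher calls, and those that passed through the moderate libraries alone gave 89 of the lower calls. Among models with 10 reads in all 4 libraries, 463 were higher and 650 lower (5.13%). The groups did not overlap for 68.3% of all members (late above in 34.9%, below in 33.4%), so lack of overlap alone marks no gene here. The calls needed both late libraries: without either one of them no gene model was called (4141 models had an unadjusted p under 0.05 without replicate 1, and 3355 without replicate 2). This holds for each late minus moderate root call named below, but not for the calls of the other comparisons. Without moderate replicate 1 there were 206 higher and 372 lower calls, and without moderate replicate 2 there were 10 and 67. Of the 64 called models named in the text, 24 and 52 lost their call in these fits. With only the 4 compared libraries in the fit there were 309 higher and 293 lower calls, and 28 of the 64 lost theirs, as given beside each below.

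The 2 kinds of watered root were not alike. In the same fit, moderate drought roots differed from day 13 watered roots in 710 gene models (2.99%; 505 or 2.12% higher and 205 or 0.862% lower in drought), whereas late watered roots differed from day 13 watered roots in 7768 (32.7%; 3890 higher and 3878 lower in late). The first of these counts was 19 without moderate replicate 1 and 2 without day 13 replicate 2, and 4479 without day 13 replicate 1. The second ran from 1804 without late replicate 2 to 9315 without day 13 replicate 1. These comparisons share libraries with the main one, so the values of each gene are set side by side below.

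ABA synthesis was represented by its control enzyme, which was high in moderate drought and low in both kinds of watered root. NCED 5 (Jcr4S15630.10), an epoxycarotenoid dioxygenase of the family that catalyses the committed step of ABA synthesis, stood at 162 and 109 CPM (read counts scaled to library size, with no correction for gene length) in moderate drought roots and at 5.66 and 4.29 CPM in late watered roots. In day 13 watered roots it was at 9.44 and 10.2 CPM. Both drought libraries were thus above all 4 watered libraries, and the late libraries were also below the day 13 watered ones (late minus day 13 -0.98, adjusted p = 0.03). The difference late minus moderate was -4.76 on the log2 scale (SE 0.31, adjusted p = 0.0053). A second member, NCED3 (Jcr4S03683.20), was at 106 and 15.3 CPM in drought and at 5.01 and 5.72 CPM in late watered roots. Its groups did not overlap, but the drought libraries differed widely and the difference of -3.50 (SE 0.83) did not pass (adjusted p = 0.053). Zeaxanthin epoxidase (Jcr4S05819.20), which acts earlier in the pathway, differed by -0.72 (SE 0.18, adjusted p = 0.057) and did not pass either. Of 8 members of the ABA synthesis and breakdown list, NCED 5 was the 1 called, a share of 12.5% beside 5.57% over all models, and the list's median difference was -0.55, which was -0.15 without moderate replicate 1.

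ABA signalling genes were called in both directions. The model described as a highly ABA-induced PP2C (Jcr4S07634.50), a phosphatase that damps ABA signalling, had 336 and 160 CPM in moderate drought roots and 25.7 and 30.5 CPM in late watered roots. Day 13 watered roots had 28.2 and 18.5 CPM, so the watered groups overlapped and drought lay above both. It was lower in late roots by 3.14 log2 units (log2 difference -3.14, SE 0.37, adjusted p = 0.015). The receptor model PYL4-like (Jcr4S01692.40) went the other way, with 44.5 and 44.5 CPM in late watered roots against 16.0 and 23.2 CPM in moderate drought (log2 difference 1.18, SE 0.24, adjusted p = 0.039). It was higher still in day 13 watered roots, at 75.9 and 119 CPM. ABA 8'-hydroxylase 3 (Jcr4S00544.20), which breaks ABA down and was singled out after its values were seen, did not sort by water. It had 83.3 and 150 CPM in late watered and 59.0 and 37.4 CPM in moderate drought roots, a difference of 1.28 (SE 0.99, adjusted p = 0.46), and late watered roots were above day 13 watered roots by 5.34 (adjusted p = 0.014). Neither the PP2C nor PYL4-like was called with only the 4 compared libraries in the fit.

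Protective proteins of drying cells were lower in late watered roots in 4 of the 16 late embryogenesis abundant (LEA) and dehydrin models tested, and higher in none. The share called was 25%, beside 5.57% over all models, and the median log2 difference was -0.91, against 0.01 over all models. The median was -0.31 without moderate replicate 1, and 2 models were called with only the 4 compared libraries in the fit. The dehydrin Jcr4S01519.40 had 2398 and 1824 CPM in moderate drought and 730 and 732 CPM in late watered roots (log2 difference -1.53, SE 0.27, adjusted p = 0.029). Day 13 watered roots, at 846 and 607 CPM, enclosed the late watered values. The dehydrin did not pass on log2 RPKM. A LEA protein of the D type (Jcr4S05404.40) differed by -3.36 (SE 0.44, adjusted p = 0.017) and a LEA14 model (Jcr4S06898.40) by -1.29 (SE 0.22, adjusted p = 0.028). For LEA14 the day 13 watered roots (95.5 and 102 CPM) were level with moderate drought (83.2 and 113 CPM), and the late watered roots (39.2 and 41.0 CPM) were below both, but LEA14 was not called with only the 4 compared libraries in the fit. Galactinol synthase (Jcr4S02696.50), which starts raffinose synthesis, had 118 and 33.2 CPM in drought against 17.8 and 19.8 CPM in late watered roots and did not pass (adjusted p = 0.076).

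**Figure D2:**
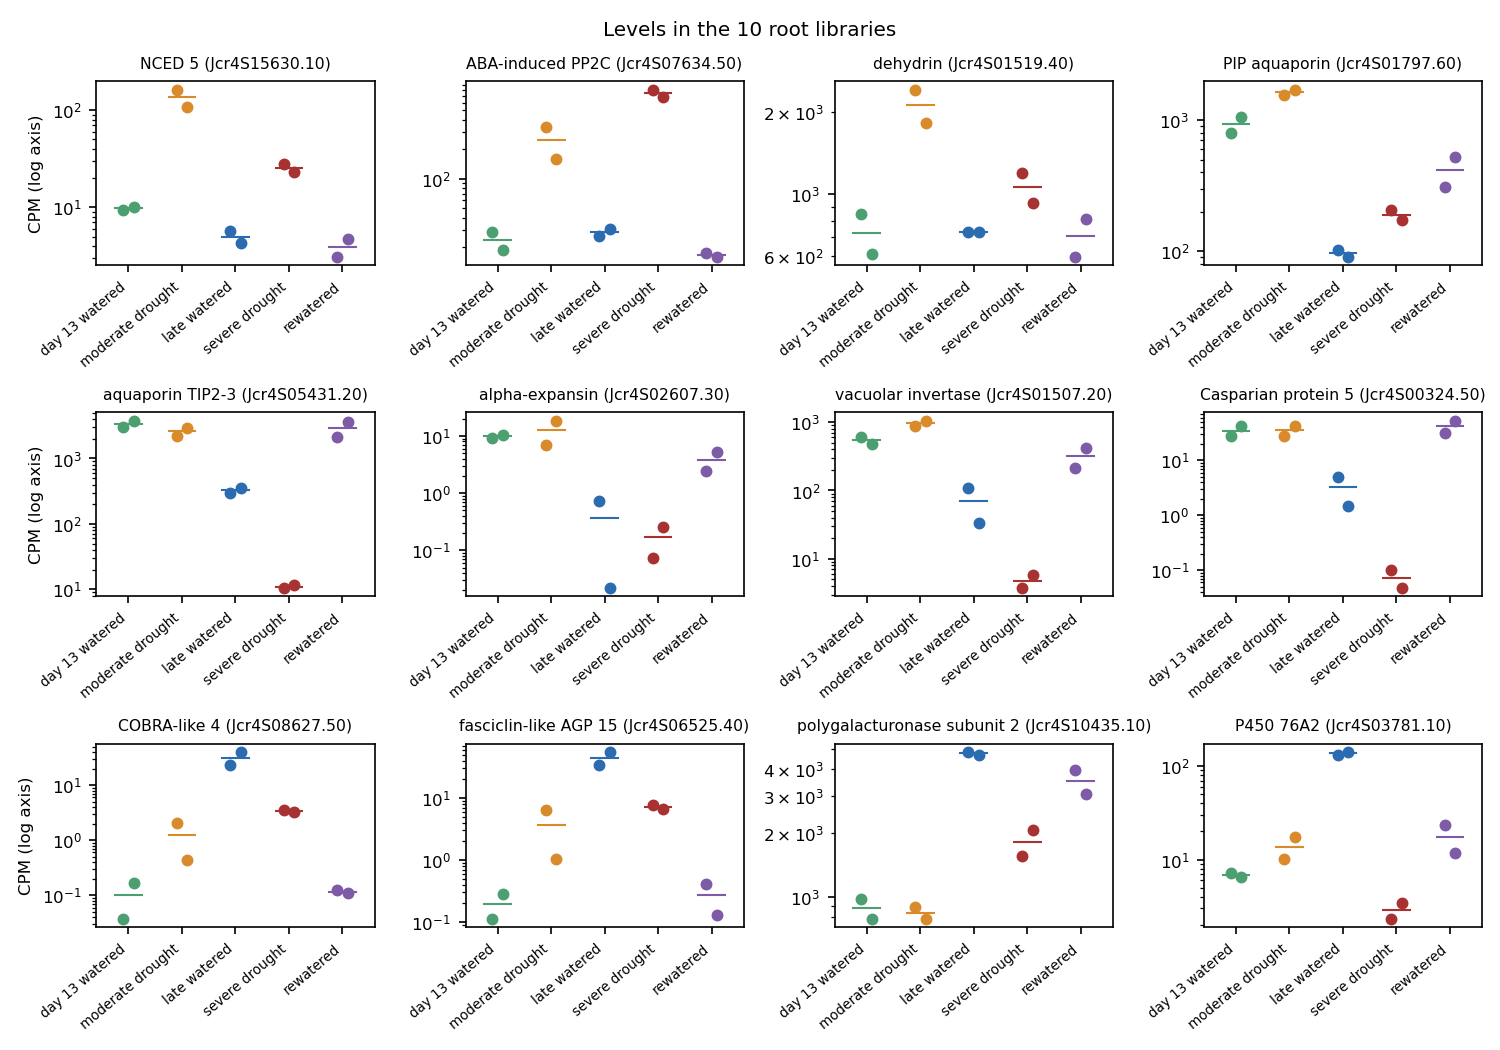
CPM on a log axis in each of the 10 root libraries for 12 gene models, with the bar at the mean of the 2 libraries. NCED 5, the ABA-induced PP2C and the dehydrin were lower in late and in day 13 watered roots than in moderate drought. The aquaporins, the expansin, the invertase and the Casparian strip protein were lower in late watered roots than in either day 13 group, and the bottom row of wall and P450 genes was higher.

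Aquaporins were lower in late watered roots across many members. Of 28 models tested, 13 were lower in late watered roots and none was higher. This was a share of 46.4% beside 5.57% over all models, with a median log2 difference of -1.45. The called members ran from -1.21 to -4.07. Summed over the family, late watered roots had 5360 and 5557 CPM, moderate drought roots 17710 and 20830, and day 13 watered roots 17930 and 28520. Every library of both day 13 groups was thus above both late libraries. Against day 13 watered roots, 17 members were lower and 3 higher in late roots, where 16.3% of all models were lower and 16.4% higher. Moderate drought roots had 2 higher and 0 lower than day 13 watered roots, where 2.12% of all models were higher and 0.862% lower. Of the 28, 7 were called without moderate replicate 1 and 4 without moderate replicate 2. DESeq2 called 15 lower and 1 higher, and the fit of only the 4 compared libraries 9 lower and 0 higher. The median difference was -0.71 on the scale of log2 RPKM + 1.

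The plasma membrane intrinsic protein Jcr4S01797.60 had 1559 and 1701 CPM in moderate drought, 797 and 1058 CPM in day 13 watered and 103 and 90.6 CPM in late watered roots. It was lower in late than in moderate roots by 16.8-fold (log2 difference -4.07, SE 0.31, adjusted p = 0.0068). The tonoplast channel TIP2-3 (Jcr4S05431.20) had 2224 and 2972 CPM in moderate drought and 300.2 and 352 CPM in late watered roots (-2.995, SE 0.31, adjusted p = 0.013). In severe drought it was at 10.5 and 11.6 CPM, and after rewatering at 2139 and 3626 CPM. NIP5-1-like (Jcr4S01286.80), of the subfamily whose Arabidopsis namesake is a boric acid channel, had 800 and 806 CPM in moderate drought and 240.0 and 254 CPM in late watered roots (-1.70, SE 0.15, adjusted p = 0.012). In all 3 channels the late watered libraries lay well below both day 13 groups, and those did not differ at adjusted p under 0.05. The 6 members with a positive difference all missed the threshold.

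**Figure D3:**
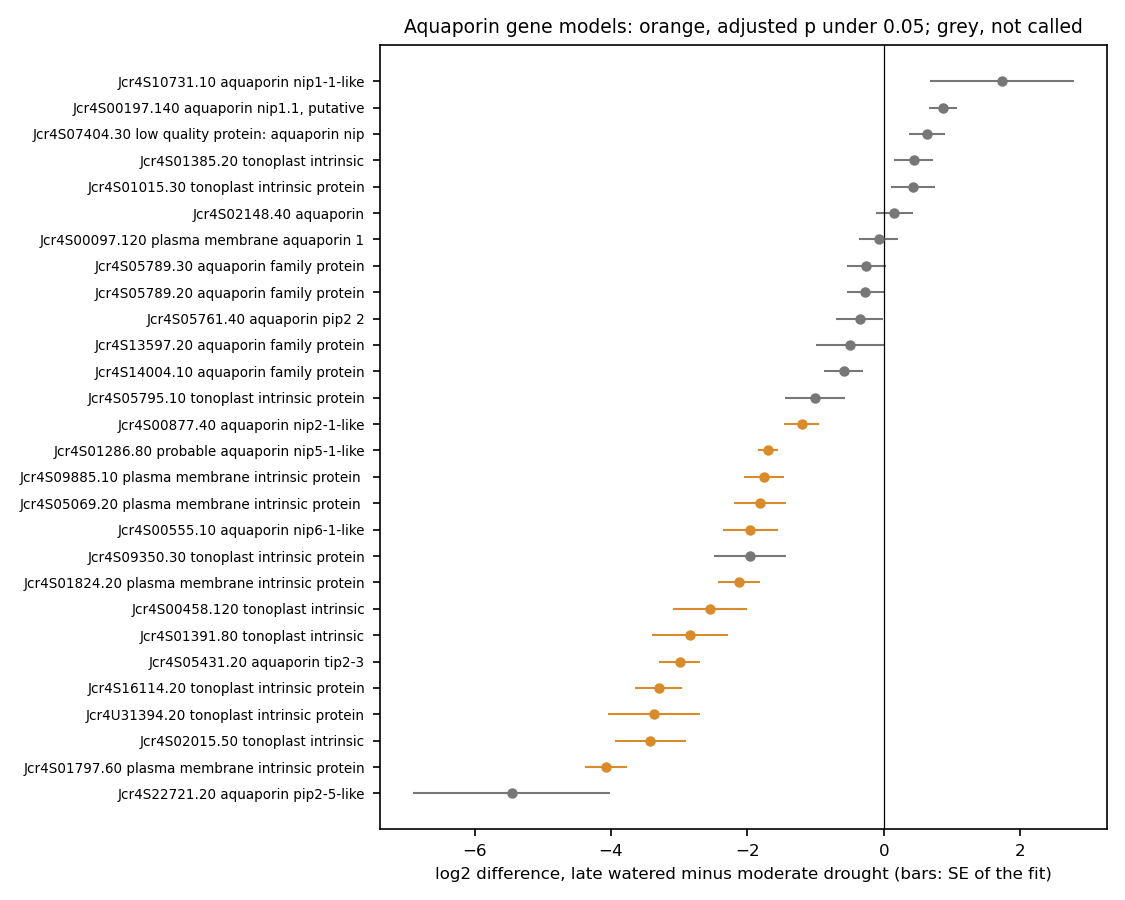
Log2 difference of each of the 28 aquaporin models, late watered minus moderate drought roots, with the standard error of the fit. Orange points passed at an adjusted p under 0.05 and lie between -1.21 and -4.07, and grey points did not pass.

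Some wall-loosening models were lower in late watered roots. In the list of expansins and xyloglucan enzymes, 8 of 61 models were lower and 1 higher (14.8%, beside 5.57% over all models). The median was -0.31, and with only the 4 compared libraries in the fit 3 were lower and 0 higher. Alpha-expansin 15 (Jcr4S00446.80) had 30.1 and 28.5 CPM in moderate drought, 15.8 and 16.6 CPM in day 13 watered and 7.88 and 9.06 CPM in late watered roots (-1.79, SE 0.22, adjusted p = 0.015). The expansin alpha Jcr4S02607.30 had 7.07 and 18.4 CPM in moderate drought and 0.716 and 0.0220 CPM in late watered roots (-5.05, SE 1.06, adjusted p = 0.041). A second expansin, Jcr4S20762.20, had nearly the same values in every root group (-4.54, SE 0.96, adjusted p = 0.041). The late libraries held 39 and 1 reads of the first and 52 and 4 of the second, so both passed the read filter through the moderate libraries, where they are high. Their levels are so alike that shared reads between copies are possible, and the pair may be 1 measurement. Alpha-expansin 11 (Jcr4S00828.30) had 25.4 and 63.1 CPM in moderate drought, 96.8 and 151 CPM in day 13 watered and 4.87 and 0.594 CPM in late watered roots (-4.003, SE 0.89, adjusted p = 0.046). Its order was day 13 watered, moderate, late, with no overlap, although moderate and day 13 watered roots did not differ at the threshold (adjusted p = 0.28). The 1 higher member was a xyloglucan endotransglucosylase/hydrolase (Jcr4S15568.20, 0.94, SE 0.19, adjusted p = 0.036), whereas another of that family (Jcr4S00360.50) was lower (-1.40, SE 0.25, adjusted p = 0.029). Of the models named here, alpha-expansin 15 alone was called with only the 4 compared libraries in the fit, and alpha-expansin 11 was also not called among models with a mean of at least 1 CPM.

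In the sucrose and starch list, 8 of 47 members were lower and 2 higher (21.3%, beside 5.57% over all models). The median was -0.04, and with only the 4 compared libraries in the fit 4 were lower and 1 higher. Vacuolar invertase (Jcr4S01507.20), which splits stored sucrose and is tied to turgor and expansion, had 866 and 1044 CPM in moderate drought, 612 and 474 CPM in day 13 watered and 109 and 33.4 CPM in late watered roots. The late libraries differed from each other but stayed below all 4 others (late minus moderate -3.75, SE 0.60, adjusted p = 0.025), and the call was not made with only the 4 compared libraries in the fit. Sucrose synthase 6 (Jcr4S03359.20) was higher in moderate drought than in either watered group, at 48.5 and 40.2 CPM against 20.8 and 22 CPM in late and 24.5 and 21.1 CPM in day 13 watered roots (late minus moderate -1.05, SE 0.18, adjusted p = 0.027; moderate minus day 13 0.96, adjusted p = 0.039).

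Of 151 cell division models tested, 18 were lower and 0 higher (11.9%, beside 5.57% over all models), and the median was -0.21. These calls depended on the fit: DESeq2 gave 42 lower and 3 higher, whereas with only the 4 compared libraries in the fit, and without moderate replicate 2, none was called. Without moderate replicate 1, 7 were lower. The replication licensing factors MCM4-like (Jcr4S02850.20; -1.02, SE 0.16, adjusted p = 0.025) and MCM6-like (Jcr4S04531.20; -1.06, SE 0.18, adjusted p = 0.027), which unwind DNA together in 1 complex, had 15.6 and 13.3 CPM and 14.3 and 11.8 CPM in late watered roots. In moderate drought they had 26.9 and 32.1 CPM and 24.4 and 30.3 CPM. A cyclin (Jcr4S01214.80) differed by -0.97 (SE 0.18, adjusted p = 0.031). The summed level of the list differed little, at 5997 and 5858 CPM in late against 6038 and 6251 CPM in moderate roots.

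Cytosolic ribosomal proteins showed a broad shift below the threshold. Only 4 of 146 were called, all lower (2.74%, under the background), yet 135 of the 146 had both late libraries below both moderate libraries, where 33.4% of all members did so. The median was -0.50, and -0.34 on the scale of log2 RPKM + 1. Among those called, 40S S24 (Jcr4S00033.200) differed by -0.57 (SE 0.12, adjusted p = 0.043) and 60S L7-4 (Jcr4S00226.130) by -0.70 (SE 0.16, adjusted p = 0.047). Neither of these was called with only the 4 compared libraries in the fit, and L7-4 also lost its call under RLE and upper-quartile scaling, filterByExpr and log2 RPKM. Against day 13 watered roots, 117 of the 146 were lower in late roots and 2 higher, where 16.3% of all models were lower and 16.4% higher. The summed level was 30450 and 49890 CPM in day 13 watered roots, so these 2 libraries differed widely. It was 25780 and 29370 CPM in moderate drought and 21300 and 19090 CPM in late watered roots.

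Wall genes split by type. Pectin-modifying enzymes were lower in 13 of 105 models and higher in 6 (18.1%, beside 5.57% over all models). Their median was -0.40, and 0.01 with no filter on reads. With only the 4 compared libraries in the fit 6 were lower and 4 higher. Yet the summed level of the list was 15200 and 15050 CPM in late watered and 6318 and 6224 CPM in moderate drought roots, and 10610 and 8474 CPM in day 13 watered roots. In late watered roots most of it lay in 2 abundant members. Both are described as polygalacturonase non-catalytic subunit 2. Jcr4S10435.10 had 4840 and 4677 CPM in late watered against 897 and 786 CPM in moderate drought roots (2.50, SE 0.24, adjusted p = 0.013), and Jcr4S01534.80 had 4916 and 4568 against 917 and 774 CPM (2.49, SE 0.27, adjusted p = 0.014). Their levels are so close that reads shared between near-identical copies cannot be set apart from 2 expressed genes. A model of the plant invertase/pectin methylesterase inhibitor superfamily (Jcr4S00136.130) was at 337 and 413 CPM in late watered and at 19.9 and 7.27 CPM in moderate drought roots (4.79, SE 0.83, adjusted p = 0.029). Its description does not say which of these enzymes it inhibits. A pectinesterase-1 precursor (Jcr4S05934.10), of the enzyme class that pectin methylesterase inhibitors act on, was lower (-2.89, SE 0.40, adjusted p = 0.019).

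A pair of genes of the kind known from secondary walls was higher in late watered roots. COBRA-like 4 (Jcr4S08627.50), whose Arabidopsis and rice relatives act in cellulose assembly of secondary walls, had 22.98 and 40.3 CPM in late watered, 2.02 and 0.438 CPM in moderate drought and 0.0371 and 0.169 CPM in day 13 watered roots (late minus moderate 4.69, SE 0.72, adjusted p = 0.023). The fasciclin-like arabinogalactan protein 15 (Jcr4S06525.40), of a family found in secondary walls of stems, had 33.5 and 55.3 CPM in late watered, 6.29 and 1.03 CPM in moderate drought and 0.111 and 0.281 CPM in day 13 watered roots (3.60, SE 0.81, adjusted p = 0.047). Moderate replicate 1 was above replicate 2 in both, on the side of the late libraries. Neither was called with only the 4 compared libraries in the fit, and the second also lost its call under filterByExpr and among models with a mean of at least 1 CPM. Of the laccases, enzymes that polymerise lignin, the named models were lower. The putative laccase Jcr4S03518.30 had 9.15 and 6.88 CPM in late watered against 50.3 and 54.9 CPM in moderate drought roots (-2.71, SE 0.36, adjusted p = 0.018), and laccase 11 (Jcr4S01174.30) differed by -1.84 (SE 0.31, adjusted p = 0.027). The list of secondary wall and lignin genes had 2 of 84 higher and 3 lower (5.95%, near the background of 5.57%), with a median of 0.04.

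Casparian strip membrane proteins are markers of young endodermis, where that barrier forms. Casparian strip membrane protein 5 (Jcr4S00324.50) was at 4.98 and 1.47 CPM in late watered, 27.9 and 42.7 CPM in moderate drought and 27.8 and 42.1 CPM in day 13 watered roots (late minus moderate -3.44, SE 0.58, adjusted p = 0.027). A second such protein (Jcr4S03748.80) differed by -2.93 (SE 0.66, adjusted p = 0.047). Neither was called with only the 4 compared libraries in the fit, and the second also not under filterByExpr or among models with a mean of at least 1 CPM. These were the 2 called of 12 suberin and endodermis models (16.7%, beside 5.57% over all models), whose median was 0.20, opposite in sign. Root hair and root cap models gave 1 lower of 5. Markers of green tissue were low throughout, with the 43 photosystem and antenna models together at 127 and 164 CPM in late watered and 160 and 137 CPM in moderate drought roots. The organelle-encoded models had a median of -1.25 and 0 of 30 called, with summed levels of 31.6 and 45.3 CPM in late against 108 and 97.99 CPM in moderate roots. Their sums in day 13 watered roots were 80.3 and 527 CPM, so these 2 libraries differed widely. Whether tissue makeup differed between the groups, and what part it had in the other results, was not tested.

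**Figure D4:**
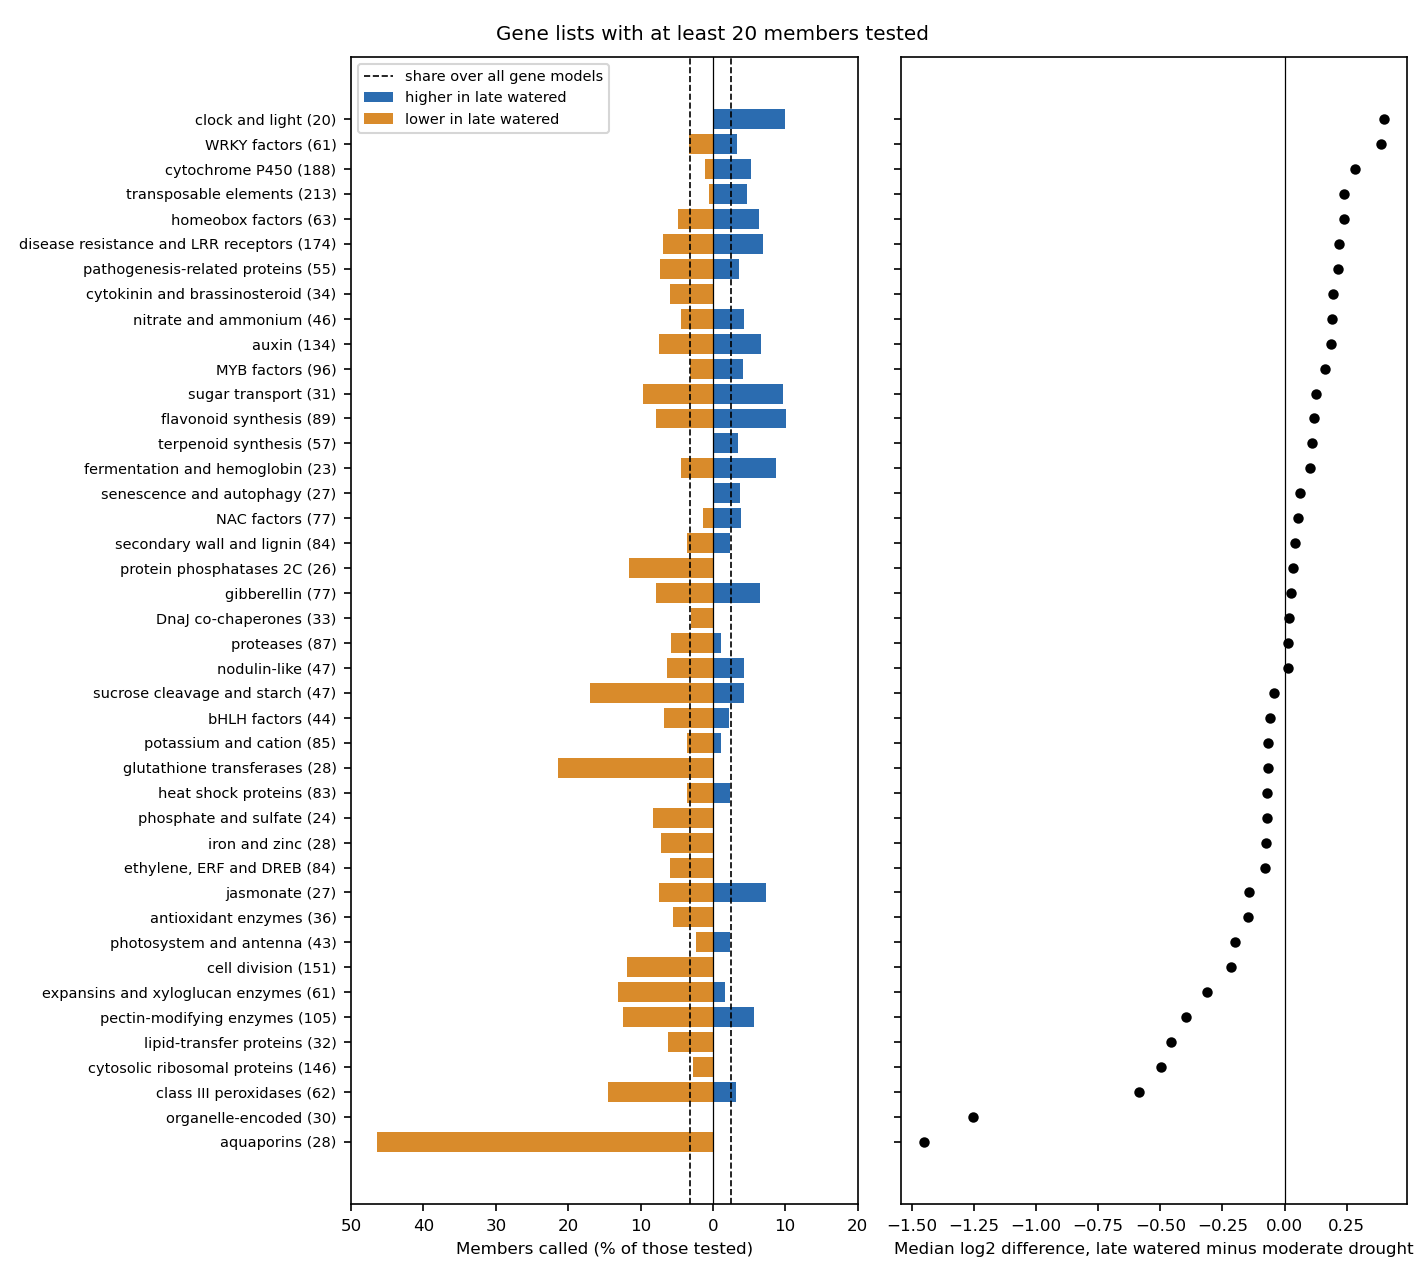
Gene lists with at least 20 members tested, ordered by median. Left, the percentage of members called higher (blue) or lower (orange) in late watered roots, with dashed lines at the shares over all gene models (2.46% and 3.11%). Right, the median log2 difference. The aquaporins have the largest called share, 46.4%, among the lists drawn.

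Cytochrome P450 enzymes, which oxidise many secondary metabolites and hormones, were called in 6.38% of 188 models, near the 5.57% over all models, with 10 higher and 2 lower in late watered roots and a median of 0.28. Other settings gave a more even split, with 24 higher and 22 lower in DESeq2, 9 and 6 with only the 4 compared libraries in the fit, and 5 and 5 without moderate replicate 1. P450 76A2 (Jcr4S03781.10) rose from 10.2 and 17.3 CPM in moderate drought to 132 and 142 CPM in late watered roots (3.31, SE 0.39, adjusted p = 0.015). A 76A2-like model (Jcr4S13402.10) had 40.1 and 46.0 CPM against 1.48 and 0.563 CPM (5.39, SE 0.87, adjusted p = 0.025), and a putative P450 (Jcr4S07160.10) 26.0 and 35.0 against 1.97 and 1.03 CPM (4.35, SE 0.66, adjusted p = 0.023). All 3 were low in day 13 watered roots too, at 7.10 CPM or less. Another putative P450 (Jcr4S04444.10) went the other way, with 32.6 and 61.2 CPM in late watered and 494 and 598 CPM in moderate drought roots (-3.54, SE 0.51, adjusted p = 0.021).

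Flavonoid genes were called in both directions, 9 higher and 7 lower of 89 (18%, beside 5.57% over all models). The pair of dihydroflavonol reductase models numbered next to each other shows this. Jcr4S00995.50 was at 144 and 121 CPM in late watered and 36.9 and 27.3 CPM in moderate drought roots (2.04, SE 0.28, adjusted p = 0.019). Its neighbour by number Jcr4S00995.40 was at 20.3 and 9.87 CPM against 122 and 198 CPM (-3.40, SE 0.49, adjusted p = 0.021). A similar split appeared between alkenal double bond reductases, where Jcr4S03760.10 was at 21.8 and 21.02 CPM against 0.267 and 0.469 CPM (5.85, SE 1.14, adjusted p = 0.035), and Jcr4S04478.20 at 8.19 and 21.9 CPM against 229 and 299 CPM (-4.13, SE 0.81, adjusted p = 0.035). With only the 4 compared libraries in the fit the lower model of each of these pairs was not called, and the list gave 7 higher and 1 lower.

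Growth hormone genes also divided. In the gibberellin list 5 of 77 were higher and 6 lower (14.3%, beside 5.57% over all models, median 0.03). A gibberellin 20 model (Jcr4S01656.20), its description ending after the number, had 250 and 296 CPM in moderate drought and 89.1 and 97.5 CPM in late watered roots (-1.55, SE 0.22, adjusted p = 0.021). A gibberellin receptor (Jcr4S02347.50) had 7.27 and 12.6 CPM against 2.77 and 3.39 CPM (-1.69, SE 0.34, adjusted p = 0.037), and day 13 watered roots were higher than both, at 30.3 and 44.1 CPM. A DELLA protein (Jcr4S00232.120), of the growth repressors that gibberellin removes, was higher in late roots, at 23.3 and 33.7 CPM against 14.4 and 12.7 CPM (1.07, SE 0.20, adjusted p = 0.031). The receptor and the DELLA protein were not called with only the 4 compared libraries in the fit. In the auxin list 9 of 134 were higher and 10 lower (14.2%). The AUX28 model (Jcr4S02009.10), an Aux/IAA repressor, differed by -2.20 (SE 0.32, adjusted p = 0.021), and a model described as auxin response (Jcr4S00603.130) by 1.84 (SE 0.30, adjusted p = 0.025). In the jasmonate list 2 of 27 were higher and 2 lower (14.8%). The lower ones were 2 jasmonate-ZIM-domain repressors, Jcr4S00225.100 (5.24 and 6.28 CPM in moderate drought, 0.184 and 0.110 in late watered roots; -5.25, SE 0.72, adjusted p = 0.019) and Jcr4S00225.90 (-1.67, SE 0.29, adjusted p = 0.028), and a lipoxygenase (Jcr4S00818.180) was among the higher (1.14, SE 0.19, adjusted p = 0.027). Jcr4S00225.100 had 10 and 5 reads in the late libraries and passed the read filter through the moderate libraries, where it is high.

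Some ion transporters were higher in moderate drought than in both watered groups. A nitrate transporter (Jcr4S00065.170) had 297 and 222 CPM in moderate drought, 79.6 and 74.6 CPM in day 13 watered and 25.2 and 22.3 CPM in late watered roots (late minus moderate -3.45, SE 0.33, adjusted p = 0.013). A sulfate transporter (Jcr4S00672.80) had 69.4 and 56.4 CPM, 18.6 and 18.1 CPM, and 6.21 and 3.69 CPM in the same order (-3.66, SE 0.39, adjusted p = 0.013). In both the moderate libraries were highest and the late libraries lowest, without overlap, and each step past day 13 watered roots passed as well (moderate minus day 13 1.75 and 1.78, adjusted p = 0.039 and 0.046). A model described as nitrate nitrite partial (Jcr4S05259.10) differed by -1.34 (SE 0.22, adjusted p = 0.027). The nitrate and ammonium list as a whole had 2 of 46 higher and 2 lower (8.7%, beside 5.57% over all models).

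Catalase 1 (Jcr4S01159.50), which removes hydrogen peroxide, was at 3865 and 3140 CPM in late watered and 1498 and 618 CPM in moderate drought roots. The groups did not overlap, but the difference of 1.73 (SE 0.46) did not pass (adjusted p = 0.066). Of 36 antioxidant enzyme models 2 were lower and 0 higher (5.56%, near the 5.57% over all models).

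The largest difference among described and well-read models belonged to Jcr4S00117.130, described only as DNA binding, with 56.0 and 59.4 CPM in late watered and 1.02 and 0.828 CPM in moderate drought roots, 62.4-fold higher (5.96, SE 0.73, adjusted p = 0.015). No other root group exceeded 3.53 CPM. Several of the lower genes were high in severe drought as well. The glycine-rich model Jcr4S06018.30 had 127 and 63.6 CPM in moderate and 78.6 and 57.3 CPM in severe drought, against 4.19 and 8.29 CPM in late and 1.34 and 1.35 CPM in day 13 watered roots (late minus moderate -3.94, SE 0.50, adjusted p = 0.017). The spotted leaf model Jcr4S03546.20 had 101 and 18.6 CPM in moderate and 70.2 and 61.4 CPM in severe drought, against 2.63 and 3.14 CPM in late watered roots (-4.38, SE 0.77, adjusted p = 0.029). An undescribed model, Jcr4S01331.50, had 41.6 and 22.4 CPM against 0.937 and 1.65 CPM (-4.64, SE 0.46, adjusted p = 0.013), and 118 and 107 CPM in severe drought. The wall-associated kinase-like 20 (Jcr4S05687.40; -4.56, SE 0.82, adjusted p = 0.03) and a pathogenesis-related protein (Jcr4S03537.40; -4.04, SE 0.39, adjusted p = 0.013) were also lower, and both were under 0.3 CPM in severe drought. The undescribed Jcr4S01772.60 was higher in late roots (4.32, SE 0.94, adjusted p = 0.044). The glycine-rich, spotted leaf and kinase models and Jcr4S01772.60 were not called with only the 4 compared libraries in the fit.

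The same contrast could be read in leaves, from libraries that the root comparison does not use. Late watered and moderate drought leaves differed in 1690 of 22163 gene models (7.63%; 828 or 3.74% higher and 862 or 3.89% lower). That count was 7 without moderate drought leaf replicate 1 and 2368 without late watered leaf replicate 1. Across the 21041 models tested in both organs, root and leaf differences were nearly unrelated (Pearson 0.05, Spearman -0.05; gene models are not independent replicates). Of 443 root-higher models tested in leaf, 27 were also higher and 16 lower there, and of 605 root-lower models, 33 were also lower and 29 higher.

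The ABA-induced PP2C (Jcr4S07634.50) was among those shared, with 29.2 and 29.6 CPM in late watered and 131 and 84.3 CPM in moderate drought leaves (-1.88, adjusted p = 0.012). PYL4-like (Jcr4S01692.40) was higher in late watered leaves by 1.34 (adjusted p = 0.025), and zeaxanthin epoxidase (Jcr4S05819.20) lower (-0.91, adjusted p = 0.011). The aquaporin Jcr4S01797.60 was lower in late leaves too (-2.06, adjusted p = 0.037), but of the 24 aquaporins tested in leaf 1 was lower and 1 higher. Both polygalacturonase subunit models were higher in late leaves (Jcr4S10435.10 by 2.07, adjusted p = 0.024; Jcr4S01534.80 by 1.65, adjusted p = 0.038), at levels of 5.61 CPM or less.

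In leaf, 44 of 146 ribosomal protein models and 20 of 151 cell division models were higher in late watered plants, with 0 and 1 lower. Over all models tested in leaf, 3.74% were higher and 3.89% lower. Whether these lists as a whole differ between organs was not tested. The difference between organs was tested for each model in 1 fit over all 22 libraries and passed for 2304 of 25028 models (9.21%; 929 or 3.71% with a more positive and 1375 or 5.49% with a more negative difference in root). Without moderate drought leaf replicate 1 it passed for 452, without late watered root replicate 2 for 483 and without moderate drought root replicate 2 for 554. The nitrate transporter Jcr4S00065.170 had the smallest p of this test among the named genes, being lower in late roots but higher in late leaves (1.22, adjusted p = 0.026), with a difference between organs of -4.68 (adjusted p = 0.00034).

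**Figure D5:**
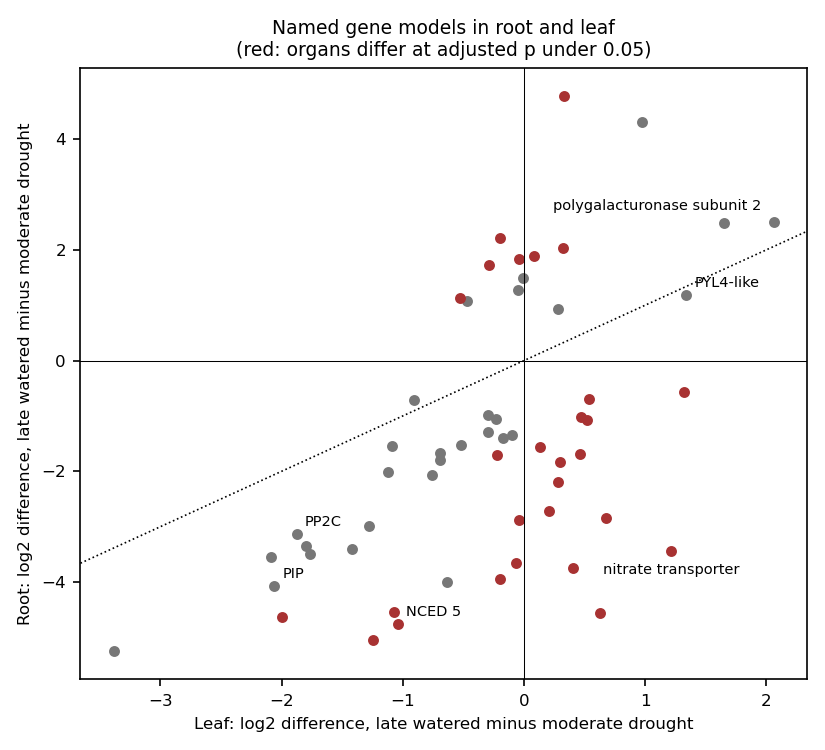
Late watered minus moderate drought difference (log2) of the named gene models in leaf (x axis) and root (y axis), with equal differences on the dotted line. Red points differ between organs at an adjusted p under 0.05, among them the nitrate transporter at -3.45 in root and 1.22 in leaf.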

How the data were processed

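The authors deposited whole-number counts of reads for each gene model, not normalized, and a table of RPKM values for the same 22 libraries, which per the file's values have 1 as their floor and nearly the same distribution in every library, for reasons not stated. The aligner, counting program, genome build and treatment of reads that match several gene models are in none of the sources used here. Per the labels' protocols, root tips of up to 1 cm and young leaves were taken, 400 ng of total RNA went into a library kit that keeps no strand, and reads were single-end of 50 bp, so overlapping and antisense genes cannot be told apart. The labels disagree on rewatering (3 or 7 days), which touches only the rewatered roots.

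Counts were scaled by TMM and tested with edgeR 4.0.16 (quasi-likelihood, robust, two-sided, R 4.3.3) in 1 fit of group means over the 10 root libraries, with Benjamini-Hochberg adjustment over all 23773 members and calls under 0.05. A standard error is the fitted log2 difference divided by the square root of its F statistic. CPM use the TMM-scaled totals. Leaves were fitted over their 12 libraries, and the difference between organs over all 22. Library distances used log2 CPM with a prior count of 2. Alternatives used DESeq2 1.42.0 and limma 3.58.1, the latter on log2 RPKM plus 1 or 0.1. Where a library was left out, the lone library of its group was assumed to vary like the other groups. The method was tested on simulated data, in 3 copies with 200 changed models each. It called 11% of the 2-fold and 72.7% of the 4-fold changes, and 6.34% of its calls were false. A model that did not pass may therefore still differ.

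Genes were named by a rule. It took the 12 higher and the 12 lower with the largest difference (called, described, groups not overlapping, mean of 10 CPM or more in the higher group), up to 3 per gene list with the smallest p at 5 CPM or more, and 2 undescribed called models per direction. Not all of these are printed. The 51 gene lists are word searches in the authors' descriptions. Members and lists were chosen with earlier results of these data known, and a few search words were mended after values had been seen. No RefSeq entry at hand matched the gene model names (0 matches), so no positions or sequences are given.

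The labels give the 2 libraries of each group the numbers 1 and 2. The deviations of same-numbered libraries from their group means correlated at -0.22 between late and moderate roots (-0.226 to 0.216 over the root groups). With 2 libraries in a group and genes that vary together, these values cannot show whether the numbers pair the libraries. The main fit used no pairing.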

Additional observations from a re-analysis of the deposited data

Results flagged for a closer look

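The late watered minus moderate drought difference itself differed between root and leaf for 2304 of 25028 gene models (edgeR's quasi-likelihood test over all 22 libraries, Benjamini-Hochberg adjusted p under 0.05). Of the 57 gene models named in the text and tested in leaf, 28 were among these. They were mostly named for their root difference, so this share is not independent of the choice. Values below are the root difference minus the leaf difference on the log2 scale.

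More negative in root were the nitrate transporter Jcr4S00065.170 (-4.68), the sulfate transporter Jcr4S00672.80 (-3.61), vacuolar invertase Jcr4S01507.20 (-4.17) and NCED 5 Jcr4S15630.10 (-3.73). The expansins Jcr4S02607.30 (-3.81) and Jcr4S20762.20 (-3.46), the pectinesterase precursor Jcr4S05934.10 (-2.86), the laccases Jcr4S03518.30 (-2.93) and Jcr4S01174.30 (-2.15), and the wall-associated kinase Jcr4S05687.40 (-5.19) were of the same sign. So were the aquaporin Jcr4S01286.80 (-1.49), the licensing factors Jcr4S02850.20 (-1.5) and Jcr4S04531.20 (-1.59), and the ribosomal proteins Jcr4S00033.200 (-1.9) and Jcr4S00226.130 (-1.24). AUX28 Jcr4S02009.10 (-2.49), the gibberellin receptor Jcr4S02347.50 (-2.17), a glutathione transferase Jcr4S00141.20 (-3.53), a TIR-NBS resistance protein Jcr4S07442.10 (-1.7), the glycine-rich Jcr4S06018.30 (-3.75) and the undescribed Jcr4S01331.50 (-2.64) complete this side. Some of these models were hardly expressed in leaf. The kinase was at 0.359 and 0.377 CPM in late watered and 0.249 and 0.225 CPM in moderate drought leaves. NCED 5 was at 0.401 and 0.259 against 0.580 and 0.796 CPM, and the sulfate transporter at 1.67 and 0.943 against 0.845 and 1.92 CPM. The leaf side of their differences thus rests on low levels.

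More positive in root were the invertase/pectin methylesterase inhibitor superfamily model Jcr4S00136.130 (4.44), the homeobox protein HOX3 Jcr4S02315.40 (2.4), catalase 1 Jcr4S01159.50 (2), the auxin response model Jcr4S00603.130 (1.87), the resistance gene-like ARGH30 Jcr4S11234.10 (1.79), the dihydroflavonol reductase Jcr4S00995.50 (1.7) and the lipoxygenase Jcr4S00818.180 (1.65). HOX3 was low in leaf, at 0.731 to 1.09 CPM over the late watered and moderate drought leaves.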

How the results depend on the processing

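The 584 higher and 739 lower calls became 309 and 293 with only the 4 compared libraries in the fit, 1611 and 1930 with DESeq2, and 2152 and 2962 with no filter on reads. On log2 RPKM the higher calls were 1272 with a pseudocount of 1 and 1263 with 0.1, against 940 and 1044 lower, so higher calls were then the larger side (57.5% and 54.7% against 44.1%). The replicate block gave 274 higher and 334 lower, and a crossed pairing of the replicate numbers, added after the data were seen, gave 242 and 318. Leaving out 1 library gave 0 to 206 higher and 0 to 372 lower. RLE and upper-quartile scaling, TMM over models read in all 10 root libraries, filterByExpr and a mean of at least 1 CPM kept both counts within 1.5 times.

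DESeq2 called 3166 models between moderate drought and day 13 watered roots, 3251 in the leaf comparison and 3630 for the difference between organs. The replicate block gave 1028 in leaf and moved no other of these counts by over 1.5 times. Leaving out 1 library gave 2 to 4479 for moderate against day 13 roots, 1804 to 9315 for late against day 13 roots, 7 to 2368 in leaf and 452 to 2529 between organs.

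No named gene changed sign under any alternative. Of the 64 named genes called, 34 kept their call in all alternatives that leave out no library, and none without either late library. Of 816 medians of gene lists under an alternative, 686 moved by less than the spread between libraries. Summed over all models, libraries of a group differed by more than counting error (chi-square per degree of freedom of 34 in late and 101 in moderate roots), a value that abundant models dominate.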

Other observations

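Detoxifying and defence genes also differed between late watered and moderate drought roots. Of 28 glutathione transferase models, 6 were lower in late watered roots and 0 higher (21.4%, beside 5.57% over all models), with a median of -0.07, and with only the 4 compared libraries in the fit 2 were lower. One of them (Jcr4S00141.20) had 21.3 and 42.1 CPM in moderate drought, 69.2 and 72.4 CPM in day 13 watered and 5.51 and 3.27 CPM in late watered roots (late minus moderate -2.85, SE 0.40, adjusted p = 0.02), and its call was not made in that fit. Class III peroxidases, which act in walls, were lower in 9 of 62 models and higher in 2 (17.7%, median -0.59), and with only the 4 compared libraries in the fit in 2 and 1. Peroxidase 21 (Jcr4S00542.120) had 157 and 158 CPM in moderate drought and 45.0 and 29.7 CPM in late watered roots (-2.07, SE 0.35, adjusted p = 0.027). Cationic peroxidase 2 (Jcr4S07131.10) went the other way, at 49.2 and 30.2 CPM in late watered against 13.5 and 14.7 CPM in moderate drought (1.49, SE 0.24, adjusted p = 0.025), and day 13 watered roots overlapped neither drought library, at 53.0 and 66.3 CPM. It was not called with only the 4 compared libraries in the fit.

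Disease resistance and LRR receptor models were called in equal number in each direction, 12 higher and 12 lower of 174 (13.8%). The ARGH30 model Jcr4S11234.10 was higher in late watered roots (1.89, SE 0.27, adjusted p = 0.02) and a TIR-NBS protein (Jcr4S07442.10) lower (-1.56, SE 0.24, adjusted p = 0.023). Homeobox factors had 4 higher and 3 lower of 63 (11.1%), among them HOX3 (Jcr4S02315.40), at 5.47 and 5.01 CPM in late watered against 1.37 and 0.891 CPM in moderate drought roots (2.21, SE 0.26, adjusted p = 0.015). Models described as transposable elements were higher in 10 and lower in 1 of the 213 tested, and 85 of these 213 did not reach 10 reads in all 4 libraries. The share called, 5.16%, was near the 5.57% over all models. Over all models 2.46% were higher and 3.11% lower. Under filterByExpr 5 transposable element models were higher and 1 lower. Among the 68 with a mean of at least 1 CPM, 1 was higher and 0 lower. The direction of these calls thus depended on the read filter, and no direction is read from them. With only the 4 compared libraries in the fit 2 were higher and 0 lower. More such models had any read in the late libraries, 1735 and 1504 against 915 to 1306 in the other root libraries. Their share of reads did not stand apart (0.0915% and 0.0792% against 0.0678% to 0.0958%).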
